A study of Homo sapiens with 6 samples.

Results

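Neural crest and EMT regulators were examined here as 10 gene rows out of the 23346 in a table of RPKM values, taken by symbol and followed library by library. They are FOXD3, PAX3, NGFR, ZEB1, ZEB2, SNAI1, SNAI2, TWIST1, CDH1 and CDH2, and each had 1 row. RPKM is the number of reads on a gene scaled by its length and by the depth of the library, so levels of different genes can be set side by side. All RNA came from the human embryonic stem cell line KhES-1, an established line, kept on a coating of laminin fragment in every sample. One group was grown in AKIT medium and the control group in Essential 8, shortened to E8 by the labels. E8 is a defined medium with FGF2 and TGF-beta, whereas inhibitors of kinases and of calcineurin replace added growth factors in AKIT. Of the 6 samples in the series, 3 AKIT and 2 E8 libraries entered the comparison. The third E8 sample was not used here. No genetic change is named for either group, and no label states whether replicates were separate cultures. P-values therefore measure the spread between these libraries, which may be technical.

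The neural crest arises at the border of the neural plate, and its cells leave the epithelium through an epithelial to mesenchymal transition, or EMT. PAX3 acts at the plate border, FOXD3 and SNAI2 specify crest cells, and NGFR, the p75 neurotrophin receptor, is a surface marker used to sort them. Factors of the Snail, ZEB and Twist families repress CDH1, the E-cadherin gene, during EMT, while CDH2, the N-cadherin gene, is often switched on. Human pluripotent cells are themselves epithelial, hold E-cadherin at their contacts, and use FOXD3 as a factor of the pluripotent state as well.

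The libraries held 16242864 to 23263095 reads, recovered from the steps between low RPKM values. The pluripotency factor POU5F1 stood at 349 ± 52.0 RPKM (SD, n = 3) in AKIT and 328 ± 21.0 (n = 2) in E8, with a log2 difference of 0.08 ± 0.15, and NANOG at 10.5 ± 2.69 and 8.15 ± 0.235. SOX2 was lower in AKIT, at 254 ± 45.3 against 435 ± 21.8 RPKM (limma adjusted p = 0.0162). Its call ended without AKIT replicate 3, without either E8 library, or with the replicate number as a block. Of 10 fibroblast markers, 1 (FAP) was at 0 in every library, and so was the melanocyte enzyme TYR. Differences, taken as AKIT minus E8 after adding 1 RPKM and taking log2, understate the change of genes with low values and are given with the standard error of limma's moderated test. "Rose" and "fell" are used of genes with a Benjamini-Hochberg adjusted p below 0.05 over the 14776 genes whose mean over the 5 libraries reached 0.5 RPKM. In RNA from bulk cultures, fewer cells that express a gene and less RNA per cell cannot be told apart.

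FOXD3, NGFR, CDH2 and SNAI1 fell in AKIT, and no member rose. These were 4 of the 7 members that passed the filter on low values. Among all tested genes 11.7% fell and 8.22% rose. At an unadjusted p below 0.05 the same limma fit, which must keep these 4, gave 4 lower and 0 higher. Of all 14776 tested genes, 2915 were lower and 2405 higher at that cutoff. Limma-voom on recovered reads called 4 lower and 0 higher, beside 1900 and 1241 of all tested genes. The other tested members, SNAI2, TWIST1 and CDH1, were not called, and PAX3, ZEB1 and ZEB2 lay below the filter. FOXD3 and NGFR were called in all 14 alternative analyses, CDH2 in 12 and SNAI1 in 9. The groups did not overlap for the 4 members that fell, nor for ZEB2, which was not tested, nor for 54.4% of all tested genes. The median difference over the 7 tested members was -0.49, beside -0.01 over all tested genes.

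**Figure D1:**
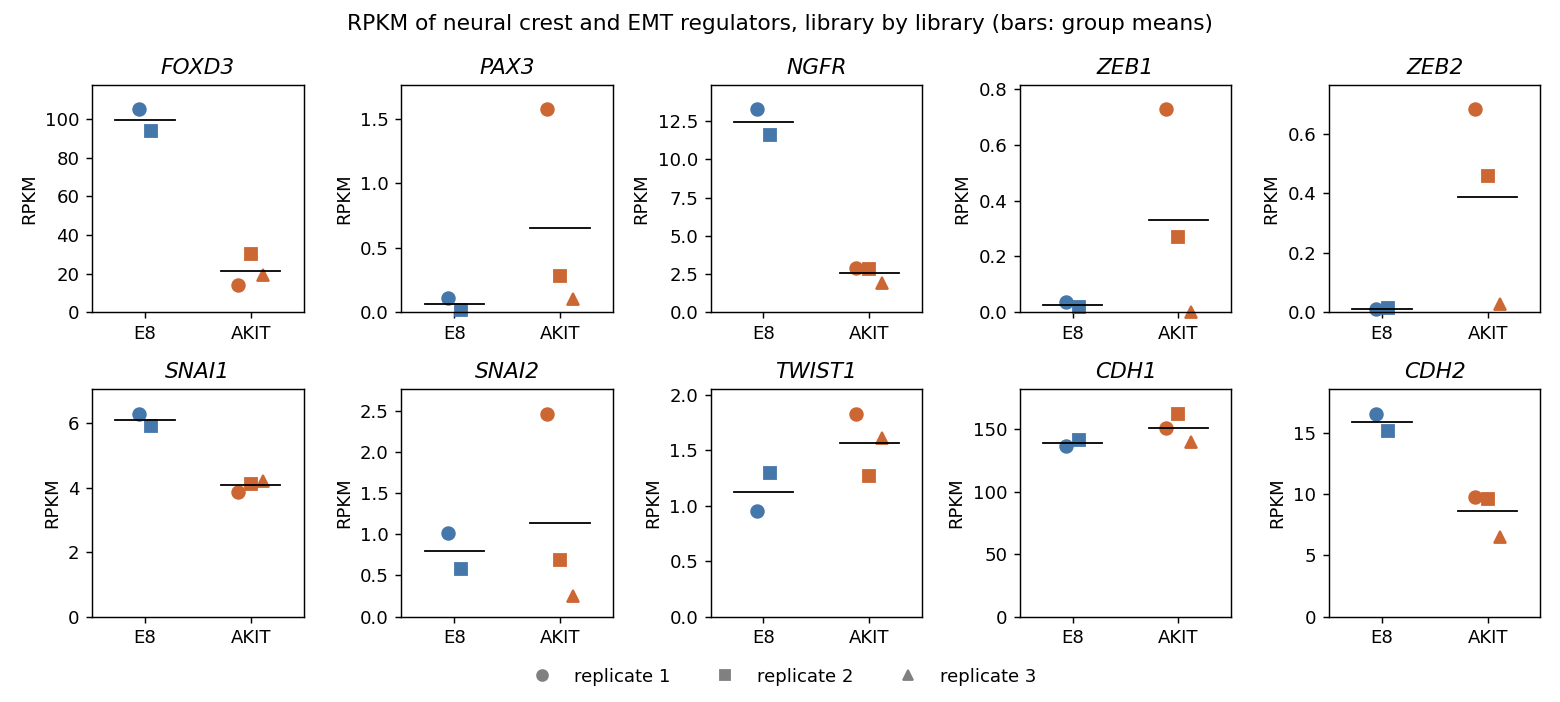
RPKM (linear axis from 0, a separate scale for each gene) of the 10 members in 2 E8 and 3 AKIT libraries; symbols mark the replicate and horizontal bars the group means. FOXD3, NGFR, SNAI1 and CDH2 lie lower in every AKIT library than in both E8 libraries, while PAX3, ZEB1, ZEB2 and SNAI2 are highest in AKIT replicate 1.

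FOXD3, a forkhead transcription factor of pluripotent cells and of early neural crest, was among the members that fell. Its level was 105 and 93.7 RPKM in E8 replicates 1 and 2 and 14.2, 30.0 and 19.3 RPKM across AKIT replicates 1, 2 and 3. All AKIT libraries lay far below both E8 libraries, and the highest AKIT value belonged to replicate 2. The mean fell from 99.4 ± 8.03 (n = 2) to 21.2 ± 8.08 RPKM (n = 3), a level 4.70-fold higher in E8. On the log2 scale the difference was -2.24 ± 0.27 (95% interval -2.88 to -1.60, limma adjusted p = 0.00321). It was the 23rd most negative difference among the 14776 tested genes. By mean RPKM, 97.8% of all rows of the table were lower than FOXD3 in E8 and 84.2% were lower in AKIT. AKIT replicates 1 and 2 also differed from each other beyond counting error, at a ratio of 0.473 (95% interval 0.431 to 0.518), so the size of the fall depended on the library. Without AKIT replicate 2 the difference was -2.51, and without AKIT replicate 1 it was -2.00.

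The other FOXD genes were low in both media. FOXD1 was the 1 of 8 that passed the filter, at 1.33 ± 0.00473 RPKM in E8 and 0.845 ± 0.261 in AKIT, and it was not called (limma adjusted p = 0.177). Of the remaining 7, 4 were at 0 in every library. The sequence before the start site of FOXD3 is shown because this member had the highest E8 level of the 4 that fell. It is the 250 bases upstream, from RefSeq on GRCh38.p14, chr1:63322317-63322566, plus strand, and capitals mark a GC box (GGGCGG), a cAMP response element (TGACGTCA) and a symmetric E-box (CACGTG).
FOXD3: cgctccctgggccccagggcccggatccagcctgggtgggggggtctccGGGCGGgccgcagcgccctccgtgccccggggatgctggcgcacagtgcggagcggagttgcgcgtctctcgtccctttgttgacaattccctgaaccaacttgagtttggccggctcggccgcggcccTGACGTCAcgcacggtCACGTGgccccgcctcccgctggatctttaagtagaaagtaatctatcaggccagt
Both strands were searched for 6 motifs, which overlap nowhere in this window. TGACGTCA was in 1.65% of the 35116 RefSeq windows of this length, CACGTG in 6.34% and GGGCGG in 42.6%. The E-box of Snail and ZEB proteins (CACCTG, in 17.5% of windows) and the TCF/LEF motif (CTTTGAT, in 2.26%) had no match here. A match describes letters and is not a measured site. In GENCODE release 29 part of the window also belongs to the antisense gene FOXD3-AS1.

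NGFR, the receptor used as a crest surface marker, was at 13.3 and 11.6 RPKM in E8 replicates 1 and 2 and at 2.92, 2.82 and 1.90 RPKM across AKIT replicates 1, 2 and 3. No AKIT library came near the E8 range, and AKIT replicate 3 was the lowest. The receptor fell from 12.4 ± 1.19 (n = 2) to 2.54 ± 0.561 RPKM (n = 3), 4.88-fold higher in E8, with a log2 difference of -1.93 ± 0.16 (95% interval -2.32 to -1.54, limma adjusted p = 0.00126). It rested on 126 to 232 reads per AKIT library and on 801 and 643 reads in E8.

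Among 17 listed names of neurotrophins, their receptors and NGFR partners, 15 were in the table and 10 were tested, of which 3 fell and 0 rose (limma; unadjusted, 4 and 0; by voom, 3 and 0). Over all tested genes 11.7% fell and 8.22% rose. NTF4, a neurotrophin ligand, fell from 4.22 ± 0.0432 to 1.53 ± 0.0306 RPKM (log2 difference -1.04 ± 0.12). LINGO1, a co-receptor of NGFR in neurons, fell from 80.6 ± 2.33 to 46.9 ± 2.47 RPKM. MAGED1, which binds the intracellular part of NGFR, fell from 72.6 ± 5.07 to 46.6 ± 4.29 RPKM. Among the Trk receptors, NTRK2 did not exceed 0.153 RPKM and NTRK3 lay between 0.846 and 1.73 RPKM. The median difference of this list was -0.27. Without AKIT replicate 1, 4 of the list fell, and with either E8 library left out 1 fell.

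SNAI1, a zinc finger repressor of CDH1, had values of 6.31 and 5.92 RPKM in E8 replicates 1 and 2 and 3.88, 4.13 and 4.20 RPKM across AKIT replicates 1, 2 and 3. The AKIT libraries sat close together and below both E8 libraries. SNAI1 fell from 6.11 ± 0.275 to 4.07 ± 0.168 RPKM, with a log2 difference of -0.49 ± 0.11 (95% interval -0.75 to -0.23, limma adjusted p = 0.0248). Its call was the least stable of the 4, with a limma adjusted p of 0.0570 without AKIT replicate 1, 0.0531 without AKIT replicate 3, 0.219 and 0.165 without E8 replicates 1 and 2, and 0.0182 to 0.219 over all alternatives. SNAI3, the remaining Snail family gene, lay between 6.48 RPKM in E8 replicate 1 and 9.19 RPKM in AKIT replicate 1, and was not called.

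SNAI2, the Snail family factor most closely tied to crest cells, was at 1.02 and 0.584 RPKM in E8 replicates 1 and 2, while AKIT replicates 1, 2 and 3 had 2.47, 0.693 and 0.244 RPKM. The AKIT libraries spanned a wider range than the E8 libraries, with replicate 1 above and replicate 3 below both of them. On the log2 scale the AKIT minus E8 difference was 0.12 ± 0.40 (95% interval -0.83 to 1.06, limma adjusted p = 0.859), and without AKIT replicate 1 it was -0.30. AKIT replicate 1 exceeded replicate 3 by a ratio of 10.1 (95% counting interval 5.30 to 21.6), from 121 and 10 reads. TWIST1, a helix-loop-helix factor of EMT, was at 1.83, 1.26 and 1.61 RPKM in AKIT and 0.952 and 1.29 RPKM in E8. The groups overlapped, and the difference of 0.27 ± 0.16 had an interval from -0.10 to 0.64 (limma adjusted p = 0.253). TWIST2 was at 0 in all 5 libraries.

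PAX3, ZEB1 and ZEB2 had few reads and were uneven among the AKIT libraries. PAX3, a paired box factor of the neural plate border, was at 1.57, 0.281 and 0.10 RPKM across AKIT replicates 1, 2 and 3, from 151, 27 and 8 reads, and at 0.110 and 0.0149 RPKM in E8, from 8 and 1 reads. AKIT replicate 1 stood above every other library, while the counting intervals of replicate 3 and of both E8 libraries overlapped. The ratio of AKIT replicate 1 to replicate 2 was 5.59 (95% counting interval 3.70 to 8.77). CCDC140, a gene next to PAX3 that was named after its values were seen, was at 0.456 RPKM in AKIT replicate 1 and at 0 in the other 4 libraries. The 250 bases before the start of PAX3, from RefSeq on GRCh38.p14, chr2:222298999-222299248, minus strand, are shown because this crest factor varied so widely within 1 medium. Capitals mark 2 matches to the CCAAT box (CCAAT), which is in 32.0% of the windows, and the other 5 motifs searched had no match.
PAX3: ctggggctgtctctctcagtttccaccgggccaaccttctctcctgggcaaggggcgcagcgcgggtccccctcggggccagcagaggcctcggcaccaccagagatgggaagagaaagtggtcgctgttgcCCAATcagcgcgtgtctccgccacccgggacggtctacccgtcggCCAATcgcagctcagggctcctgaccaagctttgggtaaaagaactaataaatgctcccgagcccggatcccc

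ZEB1, a zinc finger homeobox repressor of epithelial genes, was at 0.727, 0.269 and 0 RPKM across AKIT replicates 1, 2 and 3, from 108, 40 and 0 reads. In E8 replicates 1 and 2 it was at 0.0355 and 0.0193 RPKM, from 4 and 2 reads. The 0 reads of AKIT replicate 3 allow up to 0.0242 RPKM, taking 3 reads as the limit for counting error only, which is near the E8 levels. ZEB2, its paralog, was at 0.683, 0.457 and 0.0265 RPKM in AKIT, from 185, 124 and 6 reads, and at 0.00972 and 0.0158 RPKM in E8, from 2 and 3 reads. AKIT replicates 1 and 2 thus held ZEB2 reads well above both E8 libraries, whereas AKIT replicate 3 overlapped them within counting error. The use of strand in counting is not given, and whether antisense transcripts added reads to these genes was not tested. The antisense gene ZEB2-AS1 was at most 0.10 RPKM. ZEB1-AS1 was at 0.921 and 0.862 RPKM in E8 replicates 1 and 2, where ZEB1 had 4 and 2 reads. In AKIT it was at 0.419 to 0.855 RPKM, lowest in replicate 3, where ZEB1 had no read. With no filter on low values, the differences of PAX3, ZEB1 and ZEB2 were 0.53, 0.34 and 0.43 and none was called (limma adjusted p = 0.382, 0.361 and 0.228). Without AKIT replicate 1 the differences, with no test, were 0.16, 0.13 and 0.27.

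AKIT replicate 1 had the highest value of the 5 libraries for PAX3, ZEB1, ZEB2, SNAI2 and TWIST1, that is for 5 of 10 members, and for 18.7% of the 16730 genes with at least 20 reads over all libraries. Mesenchymal genes did so too, with 13 of 24 highest in that library. So did 5 of the 9 fibroblast markers with at least 20 reads, all of which are also among the mesenchymal genes. In the plate border and crest list it was 8 of 23 genes. The order was not particular to these lists, with 6 of 12 other EMT factors, 4 of 8 mesendoderm markers and 5 of 11 other classical cadherins. It was less common among epithelial genes (8 of 35) and catenins and cadherin regulators (0 of 13). The next 3 genes were picked as examples after their values were seen. COL3A1, a fibrillar collagen, was at 5.63, 2.15 and 0.141 RPKM across AKIT replicates 1, 2 and 3, and at 0.0413 and 0 RPKM in E8. LUM, a matrix proteoglycan of fibroblasts, was at 5.81, 1.83 and 0.0244 RPKM in AKIT and at 0 in E8. The ratio of AKIT replicate 1 to replicate 2 was 2.62 (95% counting interval 2.27 to 3.02) for COL3A1, 3.18 (2.50 to 4.08) for LUM and 2.70 (1.86 to 3.99) for ZEB1. TFAP2B, a crest transcription factor, had 2.40 RPKM in AKIT replicate 1 and at most 0.0596 elsewhere.

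Not all genes of these lists had this order. COL1A1, another fibrillar collagen, was at 32.5, 41.8 and 38.7 RPKM across AKIT replicates 1, 2 and 3 and at 51.9 and 55.5 RPKM in E8. Summed over all members of a list, the level of the 10 fibroblast markers was 209 to 273 RPKM in AKIT, highest in replicate 1, and 366 and 368 RPKM in E8. THY1, a surface glycoprotein, made up most of each sum, at 145 to 203 RPKM in AKIT and 273 and 275 RPKM in E8. The sums therefore mostly follow THY1 and do not measure an amount of fibroblasts. In both E8 libraries, where THY1 was highest, LUM and DCN were at 0. The summed level of the 24 mesenchymal genes, THY1 among them, was 523 to 686 RPKM in AKIT and 782 and 802 in E8. The part of other cell types in the levels of the 4 regulators was not tested.

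**Figure D2:**
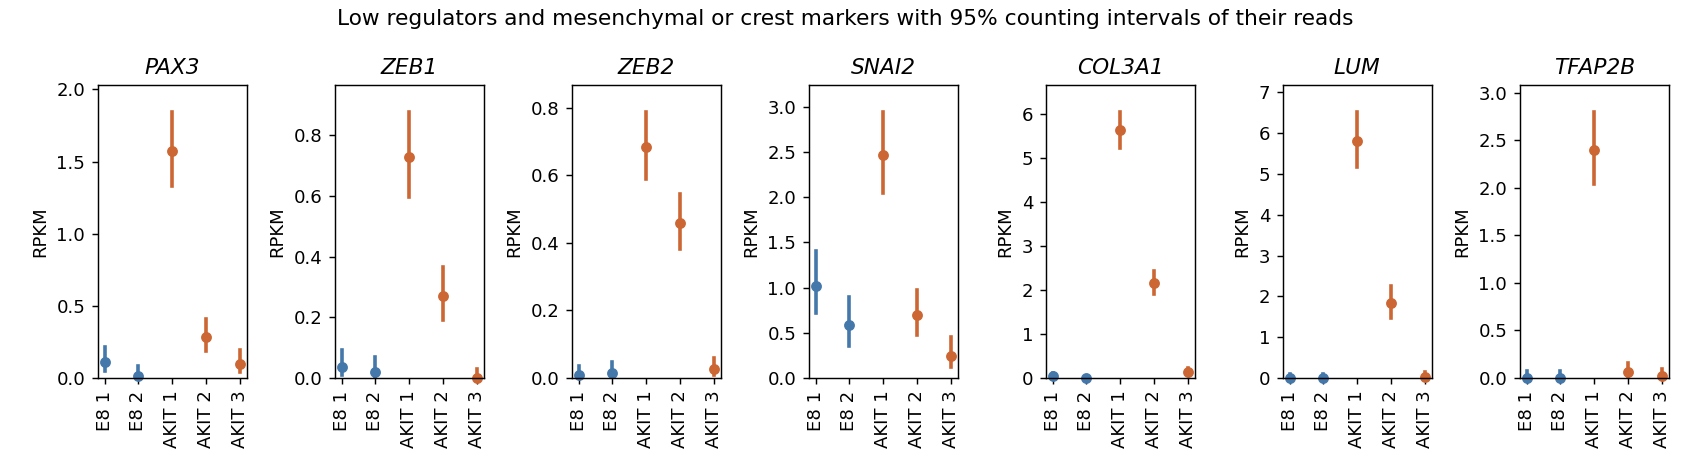
RPKM (linear axis from 0, a separate scale for each gene) of 4 low members and of COL3A1, LUM and TFAP2B in each library; lines are 95% Poisson counting intervals of the reads, which cover counting error only. AKIT replicate 1 is highest in all 7 panels and AKIT replicate 3 is lowest of the AKIT libraries in each. COL3A1, LUM and TFAP2B were picked after their values were seen. TWIST1, whose lowest AKIT value was in replicate 2, is not shown. For TFAP2B, AKIT replicates 2 and 3 had 4 and 1 reads.

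CDH1, the E-cadherin gene, was the most abundant member in both media and did not pass the test. It was at 136 and 141 RPKM in E8 replicates 1 and 2 and at 151, 162 and 140 RPKM across AKIT replicates 1, 2 and 3. The ranges overlapped, with AKIT replicate 3 between the E8 libraries. Means were 139 ± 3.40 (n = 2) in E8 and 151 ± 11.3 RPKM (n = 3) in AKIT, with a log2 difference of 0.12 ± 0.10 and a 95% interval from -0.12 to 0.36 (limma adjusted p = 0.451). The upper tail of the table held it in both media, with 98.7% of rows lower in E8 and 98.8% lower in AKIT.

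CDH2, the N-cadherin gene, was at 16.6 and 15.2 RPKM in E8 replicates 1 and 2 and at 9.75, 9.63 and 6.50 RPKM across AKIT replicates 1, 2 and 3. Every AKIT library was below both E8 libraries, and replicate 3 was the lowest. CDH2 fell from 15.9 ± 1.02 to 8.63 ± 1.84 RPKM, 1.84-fold higher in E8 (log2 difference -0.83 ± 0.17, limma adjusted p = 0.0199). The call ended with E8 replicate 1 or 2 left out (limma adjusted p = 0.157 and 0.119, within 0.00786 to 0.157 over all alternatives). The level of CDH1 divided by that of CDH2 was 8.21 and 9.30 in E8 replicates 1 and 2 and 15.4, 16.9 and 21.5 in AKIT. These ratios did not overlap between the media, and a two-sided exact permutation test gave p = 0.2, the smallest that 3 against 2 libraries allow.

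Of 15 other classical cadherins, 5 were tested, and 2 fell and 0 rose (limma; unadjusted, 3 and 0; by voom, 2 and 0). The 2 were CDH24, from 10.3 ± 0.0716 to 5.77 ± 0.514 RPKM, and CDH4, from 5.26 ± 0.639 to 3.36 ± 0.203. None of the list was called with an E8 library left out, and 1 gene fell without AKIT replicate 1 or 3. Catenins link cadherins to actin, and of 12 tested genes for catenins and cadherin regulators 6 fell and 0 rose (limma; unadjusted, 7 and 1; by voom, 6 and 0). Beside both lists, 11.7% of all tested genes fell and 8.22% rose. AJUBA, a LIM protein of cell junctions, fell from 37.3 ± 0.173 to 11.4 ± 2.47 RPKM with a log2 difference of -1.65 ± 0.16. CTNNA2 and CTNND2, catenins best known from neurons, fell by 0.97 and 0.81 on the log2 scale. Of the more abundant catenins, CTNNB1 fell from 122 ± 1.95 to 91.9 ± 2.55 RPKM and JUP from 62.3 ± 1.19 to 36.9 ± 3.38. CTNNA1 and CTNND1 were not called. The median of the list was -0.37, and only 1 of its genes was called when an E8 library was left out.

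**Figure D3:**
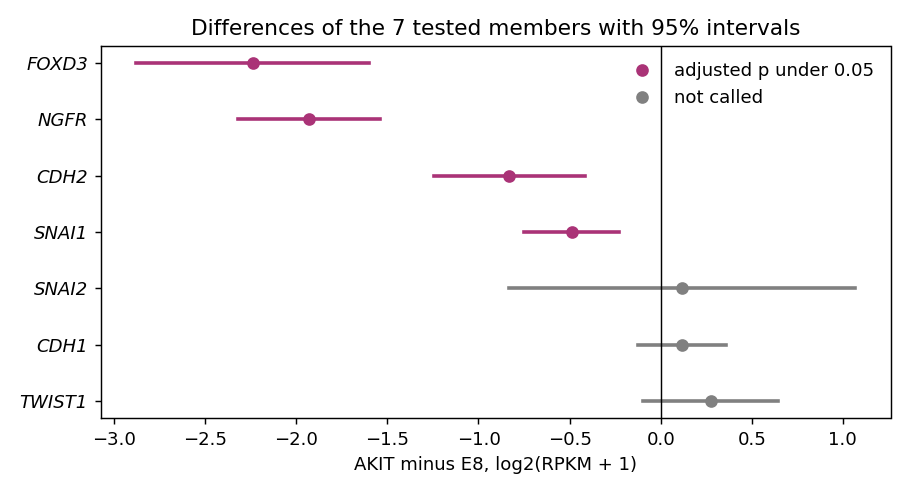
Difference between media (AKIT minus E8, log2 of RPKM plus 1) for the 7 members that passed the filter; points are estimates and lines 95% intervals from limma. The intervals of FOXD3, NGFR, CDH2 and SNAI1 lie below 0, and those of SNAI2, CDH1 and TWIST1 include it.

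Epithelial genes other than CDH1 moved unequally. Of 35 tested, 10 fell, 0 rose and 25 were not called, with a list median of -0.18 (limma; unadjusted, 14 lower and 5 higher; by voom, 11 and 0). The shares over all tested genes were 11.7% that fell and 8.22% that rose. CLDN4, a tight junction claudin, fell from 60.9 ± 0.276 to 10.6 ± 1.98 RPKM, a log2 difference of -2.43 ± 0.15 with a limma adjusted p = 0.000481. RAB25, a small GTPase of epithelial recycling endosomes, fell from 23.2 ± 3.26 to 4.79 ± 0.900 RPKM. OVOL2, a zinc finger factor that keeps ZEB1 repressed in epithelia, fell from 7.12 ± 0.179 to 0.988 ± 0.244 RPKM (log2 difference -2.04 ± 0.15). It was at 1.05, 0.719 and 1.19 RPKM across AKIT replicates 1, 2 and 3, below both E8 libraries in each. The 5 higher at an unadjusted limma p below 0.05 were EPCAM, DSP, OVOL1, GRHL1 and MARVELD3, and none was called. Each was higher in every AKIT library than in both E8 libraries. The log2 difference was 0.46 ± 0.17 for EPCAM, 0.39 ± 0.13 for DSP and 0.54 ± 0.195 for OVOL1. By log2 difference, 9 of the 35 were higher in AKIT and 26 lower. Fewer of this list, as of all tested genes, fell with an E8 library left out. Without AKIT replicate 2, 5 of the 35 rose, beside 2132 of all 14747 genes tested in that fit.

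Mesenchymal genes were counted on the opposite side of EMT. Of 22 tested, 6 fell and 0 rose, with a list median of -0.13 (limma; unadjusted, 7 and 2; by voom, 7 and 1). Among all tested genes, for this and the next lists, 11.7% fell and 8.22% rose. S100A4, a calcium-binding protein also used as a fibroblast marker, fell from 21.8 ± 2.48 to 6.80 ± 1.18 RPKM. PDGFRB, a receptor of mural cells and fibroblasts, fell from 3.40 ± 0.0765 to 1.02 ± 0.427 RPKM, and SPARC, a matrix protein, fell from 130 ± 2.59 to 72.8 ± 14.1. VIM, the vimentin gene, named after its values were seen, was uneven within AKIT, at 72.8, 46.7 and 15.7 RPKM across replicates 1, 2 and 3, above both E8 libraries (60.7 and 59.2 RPKM) in replicate 1 and below them in the other two. Without AKIT replicate 3, 4 mesenchymal genes rose and 3 fell, beside 684 and 1117 of all 14802 genes tested in that fit. Fewer mesenchymal genes, and fewer of all tested genes, fell in fits with 1 E8 library. Of 7 tested fibroblast markers, all of them also counted among the mesenchymal genes, 4 fell. One was THY1, from 274 ± 1.21 to 168 ± 30.4 RPKM. Of these markers 2 fell and 2 rose without AKIT replicate 3, and 1 fell in fits with 1 E8 library. Of 7 other EMT transcription factors tested, HMGA2, a chromatin protein, rose from 65.0 ± 2.56 to 93.5 ± 6.57 RPKM and 0 fell (limma; unadjusted, 1 rose and 0 fell; by voom, 1 and 0). The rise was not called with an E8 library left out or with the replicate number as a block.

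Other genes of the plate border and crest fell in part. Of 16 tested, 4 fell, 0 rose and 12 were not called, with a list median of 0.17 (limma; unadjusted, 5 lower and 3 higher; by voom, 4 and 0). Over all tested genes the shares were 11.7% and 8.22%, fallen and risen. TFAP2A, an AP-2 factor of crest and surface ectoderm, was at 2.61 and 2.27 RPKM in E8 and at 0.738, 0.233 and 0.206 RPKM across AKIT replicates 1, 2 and 3 (log2 difference -1.32 ± 0.19, limma adjusted p = 0.00616). MYCN, a MYC family factor, fell from 135 ± 3.20 to 70.8 ± 12.7 RPKM, and SOX9, a crest and cartilage factor, fell from 6.35 ± 0.527 to 3.14 ± 1.02. SOX10, the factor of migrating crest and its glia, was at 1.83, 1.40 and 1.98 RPKM in AKIT and 2.30 and 2.90 in E8 and was not called. The 3 higher at an unadjusted limma p below 0.05 were SOX8, TFAP2C and EDNRB, and none was called. SOX8 was at 8.10 ± 1.59 RPKM in AKIT and 5.48 ± 0.159 in E8. TFAP2C was at 22.6 ± 7.23 and 14.2 ± 1.30, and EDNRB at 58.5 ± 23.7 and 31.2 ± 0.135. By log2 difference, 9 of the 16 were higher in AKIT and 7 lower. Without AKIT replicate 2 or 3, 3 genes of this list rose, beside 2132 of 14747 and 684 of 14802 genes tested in those fits. The falls were no longer called with an E8 library left out. In fits with 1 E8 library left, that library is assumed to vary like the AKIT libraries.

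Among 4 tested neuroectoderm markers the tubulin gene TUBB3, active in neurons, was called higher, at 203 ± 22.3 RPKM against 132 ± 5.94 in E8. The other 3 were not called, and the list median was -0.0016. HES5, 1 of these 3, was at 0.395 ± 0.348 RPKM in AKIT and 1.06 ± 0.0332 in E8. Among 4 tested mesendoderm markers FOXA2, a forkhead factor of endoderm, rose from 0.537 ± 0.160 to 2.80 ± 0.855 RPKM. The other 3 were not called, and the list median was 0.45. Of all tested genes, 8.22% rose. With either E8 library left out neither rise was called, and with the replicate number as a block that of TUBB3 was not called.

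**Figure D4:**
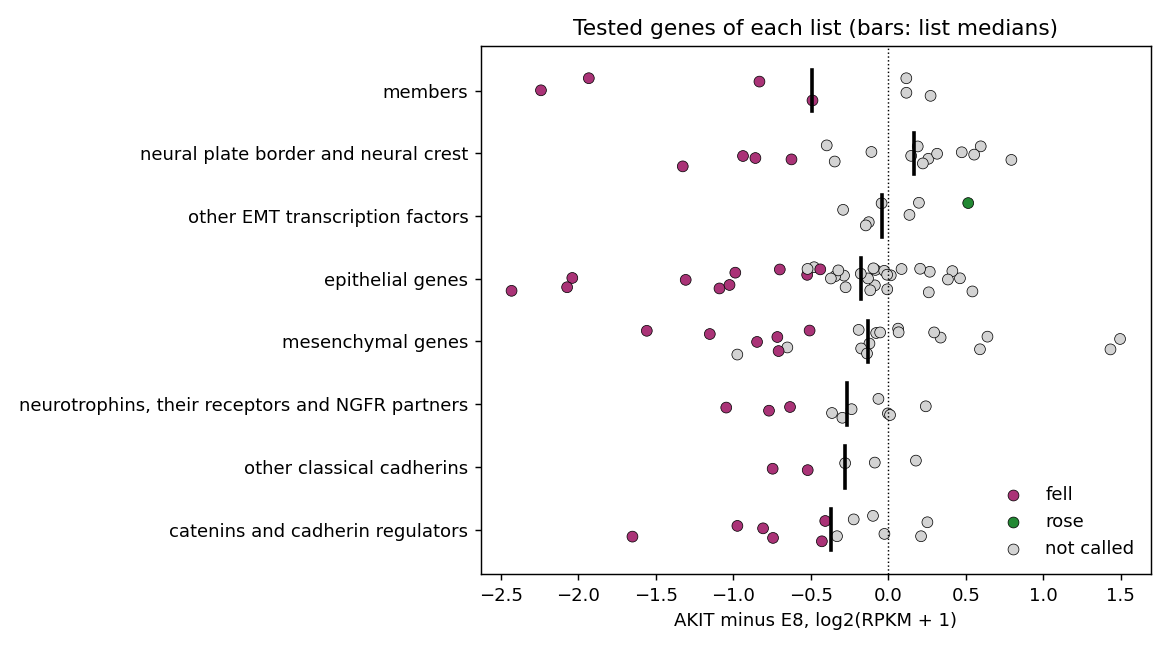
Difference between media (AKIT minus E8, log2 of RPKM plus 1) for every tested gene of the members and of 7 lists; each point is a gene, colour gives the call and black bars the list medians. The members' median is -0.49, and the lists' medians run from -0.37 for catenins and cadherin regulators to 0.17 for the neural plate border and crest.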

How the data were processed

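Per the labels' protocols, Illumina libraries were prepared from total RNA. The authors deposited RPKM values for 23346 gene rows, and the submitters' processing notes name hg19 and GRCh37. Not given in the sources used here are the aligner, counter, annotation and strand setting. Columns of 5 of the 6 samples were matched by title.

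From RPKM steps, whole reads (tolerance 0.02) were recovered for 100% of the 19892 genes above 0. Where a gene's reads share a factor, the smallest whole set was taken. Recovered reads served for depth, counting intervals (exact Poisson or binomial, 95%, counting error only) and 1 alternative.

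Log2 values of the deposited RPKM plus 1 were tested with limma 3.58.1 under R 4.3.3, trend on, keeping genes whose mean reached 0.5 RPKM, two-sided, Benjamini-Hochberg adjusted over 14776 genes, with no covariate. The fit was also run on simulated reads with the same dispersion for every gene, which does not show how it performs on these libraries. The exact permutation test used scipy 1.17.1.

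The 10 members and 13 gene lists were chosen with earlier results of these data known. From each list, up to 3 called genes by size of change were named, or the 2 with the smallest p, beside further genes given as single values to complete a family or list. As alternatives, pseudocounts of 0.1 and 0.5 were used, then no filter, a minimum of 2 RPKM, 2 other scalings, no trend, a replicate block, voom on recovered reads and leaving out each library. RefSeq windows were found for 5 members; motifs were chosen after seeing the data. Some results on genes of the lists are not reported here.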

Additional observations from a re-analysis of the deposited data

How the results depend on the processing

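Of the members, 4 fell in the main analysis and 2 to 4 with 1 library left out, with 2 (FOXD3 and NGFR) when either E8 library was missing; 0 rose under any alternative. Among all tested genes 1214 rose and 1736 fell, against 142 to 2132 and 250 to 2619 with 1 library left out, lowest without E8 replicate 2 and highest without AKIT replicate 2. The log2 difference of SNAI2 ran from -0.30 without AKIT replicate 1 to 0.44 without AKIT replicate 3, and was -0.06 without E8 replicate 2. With the replicate number as a replicate block, 492 genes rose and 824 fell, and 3 members fell, since SNAI1 was no longer called (limma adjusted p = 0.0928). The labels do not say that the numbers pair the samples. Deviations of same-numbered libraries correlated at -0.0013 and 0.025. With 2 E8 libraries, whose deviations mirror each other, this cannot decide whether the samples were paired. AKIT replicate 3 has no partner in that fit, whose differences for the members equal those without it. No other setting moved the counts of members or of genes by over 1.5 times; the cause of these changes beyond having fewer libraries was not tested. The median difference of all tested genes stayed between -0.02 and 0.03 under the alternatives tried. Depth limits PAX3, ZEB1 and ZEB2, which had 0 to 8 reads per library in E8 and in AKIT replicate 3.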
